A study of Rattus norvegicus with 24 samples.

Results

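The 50 lysosome genes described here are a list of rat gene symbols for the enzymes, membrane proteins, proton pump subunits and regulators of the lysosome. Each was read from the probe set that names it alone and has the highest mean over all 24 arrays, which left 47 of the 50, of 14201 genes in all. Galns, Npc1 and Atp6v0d2 had no probe set of their own and were dropped. The rats were 12 wild-type male Sprague-Dawley rats, 46 to 49 days old, in 4 groups of 3. These groups had oral cyclophosphamide without wood sticks in the cage, vehicle without wood sticks, cyclophosphamide with wood sticks, and vehicle with wood sticks. The dose was 40 mg/kg/day for 5 days, and spleen and liver RNA of each rat went to 1 Affymetrix rat expression array per organ. Cyclophosphamide is an alkylating drug whose metabolites crosslink DNA in dividing cells.

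Lysosomes are acidic organelles in which proteases, glycosidases, lipases and phosphatases break down material taken in from outside or delivered by autophagy. A vacuolar proton pump keeps them acidic, and heavily glycosylated membrane proteins such as Lamp1 and Lamp2 line them. The transcription factor Tfeb binds an E-box element in the promoters of many lysosome genes. Macrophages, which in spleen clear old red cells and dying lymphocytes and in liver are the Kupffer cells, are rich in lysosomes.

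All values are log2 intensities, so a difference of 1 is a 2-fold change, and a value says nothing about the level of one gene against another, since probes differ. Spleen arrays had median intensities of 113 to 121 and liver arrays of 89.7 to 101. The number of cells left blank was 1021 to 1920 per spleen array and 4924 to 6060 per liver array. Among spleen arrays, the 3 of vehicle rats without wood and that of drug-treated rat 2005 had 1778 to 1920 blanks, and the other 8 had 1021 to 1183. The liver array of drug-treated rat 2003 stood apart, with 6060 blanks. Its correlation with the rest of the liver arrays averaged 0.847, where the next lowest average was 0.906. The organ labels held: summed hepatocyte marker intensity was 315 to 1103 over spleen arrays and 77614 to 88354 over liver arrays.

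Promoters are shown for genes that bear on the E-box element and for the members with the largest changes. RefSeq promoters (build GRCr8, 250 bases before to 50 after the start) were found for 40 of the 50 members. The core CACGTG, which reads the same on both strands, was present in 9 of these 40 (22.5%), against 8.92% of the 11720 promoters of genes named on the array and 6.42% of all 33469 in the table. The longer form TCACGTGA, which contains the core, was present in 5 (12.5%), against 1.46% and 0.777%. Those 5 were Lamp1, Ctsd, Mcoln1, Cln3 and Atp6v0d1. The printed promoters are those of Lamp1 (chr16:83075014-83075313, minus strand), Ctsd (chr1:206968772-206969071, minus strand) and Mcoln1 (chr12:6358008-6358307, plus strand), which hold the longer form. Beside them are Ctsk (chr2:185747298-185747597, plus strand), the member with the largest rise in spleen, and Ctse (chr13:45643965-45644264, plus strand), the member with the largest fall, which hold neither. Capitals mark the core, with its flanking T and A where the longer form is present, and each sequence reads 5′ to 3′ along the gene.
Lamp1: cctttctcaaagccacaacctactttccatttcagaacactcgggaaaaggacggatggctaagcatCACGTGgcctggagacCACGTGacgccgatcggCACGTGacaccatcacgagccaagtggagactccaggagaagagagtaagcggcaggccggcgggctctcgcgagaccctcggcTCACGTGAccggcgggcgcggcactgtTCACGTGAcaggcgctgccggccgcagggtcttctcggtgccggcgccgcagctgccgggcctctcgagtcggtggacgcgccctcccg
Ctsd: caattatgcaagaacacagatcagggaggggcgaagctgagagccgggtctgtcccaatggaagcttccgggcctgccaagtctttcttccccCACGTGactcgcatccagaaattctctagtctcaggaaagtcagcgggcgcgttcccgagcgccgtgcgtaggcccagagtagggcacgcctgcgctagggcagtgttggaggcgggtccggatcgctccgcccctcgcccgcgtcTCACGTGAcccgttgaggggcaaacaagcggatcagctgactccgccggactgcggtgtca
Mcoln1: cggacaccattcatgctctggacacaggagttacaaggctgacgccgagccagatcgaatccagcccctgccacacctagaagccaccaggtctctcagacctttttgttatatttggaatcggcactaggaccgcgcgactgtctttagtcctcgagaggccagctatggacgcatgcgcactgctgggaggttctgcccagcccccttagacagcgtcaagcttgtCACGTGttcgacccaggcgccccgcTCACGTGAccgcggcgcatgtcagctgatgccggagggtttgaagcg
Ctsk: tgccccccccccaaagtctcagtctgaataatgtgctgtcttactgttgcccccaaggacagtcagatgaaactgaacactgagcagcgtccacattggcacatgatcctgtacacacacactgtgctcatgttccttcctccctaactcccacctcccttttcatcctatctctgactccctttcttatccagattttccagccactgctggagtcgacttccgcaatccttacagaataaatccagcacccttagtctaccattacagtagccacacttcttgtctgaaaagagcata
Ctse: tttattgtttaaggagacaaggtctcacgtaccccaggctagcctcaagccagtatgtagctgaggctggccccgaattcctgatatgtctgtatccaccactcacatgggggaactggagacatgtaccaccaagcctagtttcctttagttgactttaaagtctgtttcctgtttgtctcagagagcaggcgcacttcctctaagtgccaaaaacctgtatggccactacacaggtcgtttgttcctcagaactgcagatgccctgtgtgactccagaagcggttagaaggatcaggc

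The Lamp1 promoter held 5 copies of the core, 2 of them in the longer form, and those of Ctsd, Mcoln1 and Cln3 held 2 copies each. The other promoters with the core were those of Ctsf, Gaa, Glb1, Idua and Atp6v0d1, with 1 copy each. Among the 9 members with the core, 8 were higher in spleen after the drug, with a median log2 change of 0.41. Among the 29 measured members whose promoter lacked it, 22 were higher, with a median of 0.544. A match is a description of these letters and not of binding.

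In spleen, most lysosome genes were higher after cyclophosphamide. Of the 47 members, 37 rose and 2 fell in the drug effect, the mean of the changes without and with wood (limma, adjusted p below 0.05 over all 13614 genes tested). Over all genes, 26.9% rose and 28.1% fell. The median log2 change was 0.48 over the members and −0.02 over all genes. Rises of at least 1.5-fold numbered 18 and rises of at least 2-fold 7, and the shares of all genes at these folds were not counted. In RNA of a whole organ, fewer cells of a type and less RNA per cell cannot be told apart, and the same holds for more of either. Each array took 5 µg of RNA, so a value is a share of that RNA. A rise therefore cannot be told apart from a loss of the RNA of other cells.

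The shift was present in every treated rat. Taking each member's value minus its mean over the 6 vehicle spleens, the median over the 47 members was 0.52, 0.51 and 0.48 in the 3 drug-treated rats without wood and 0.46, 0.45 and 0.49 in the 3 with wood. In vehicle rats it was 0.03, −0.07 and −0.07 without wood and 0.07, −0.01 and 0.07 with wood. The drug-treated spleens lay in a narrow band that did not overlap the vehicle spleens. The spread of the members within a group was small: the mean within-group SD of a member had a median of 0.096 in spleen and 0.146 in liver.

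The counts were alike in both housings. Without wood 33 members rose and 2 fell, where 22.7% of all genes rose and 22.4% fell. With wood 33 rose and 3 fell, where 19.9% rose and 18.5% fell. In both housings 30 of the rises and 2 of the falls were called, and 41 of the 47 members had the same sign in both. The shares of all genes called in both housings, or with the same sign in both, were not counted. The comparison with wood lies wholly among spleen arrays with few blanks. The one without wood does not, and a fit with the division by blanks as batch gave it 27 rises. With that term the drug effect over both housings gave 35 rises, and Psap and Glb1 no longer passed (adjusted p 0.104 and 0.255). The shares of all genes called with that term are not given here.

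**Figure D1:**
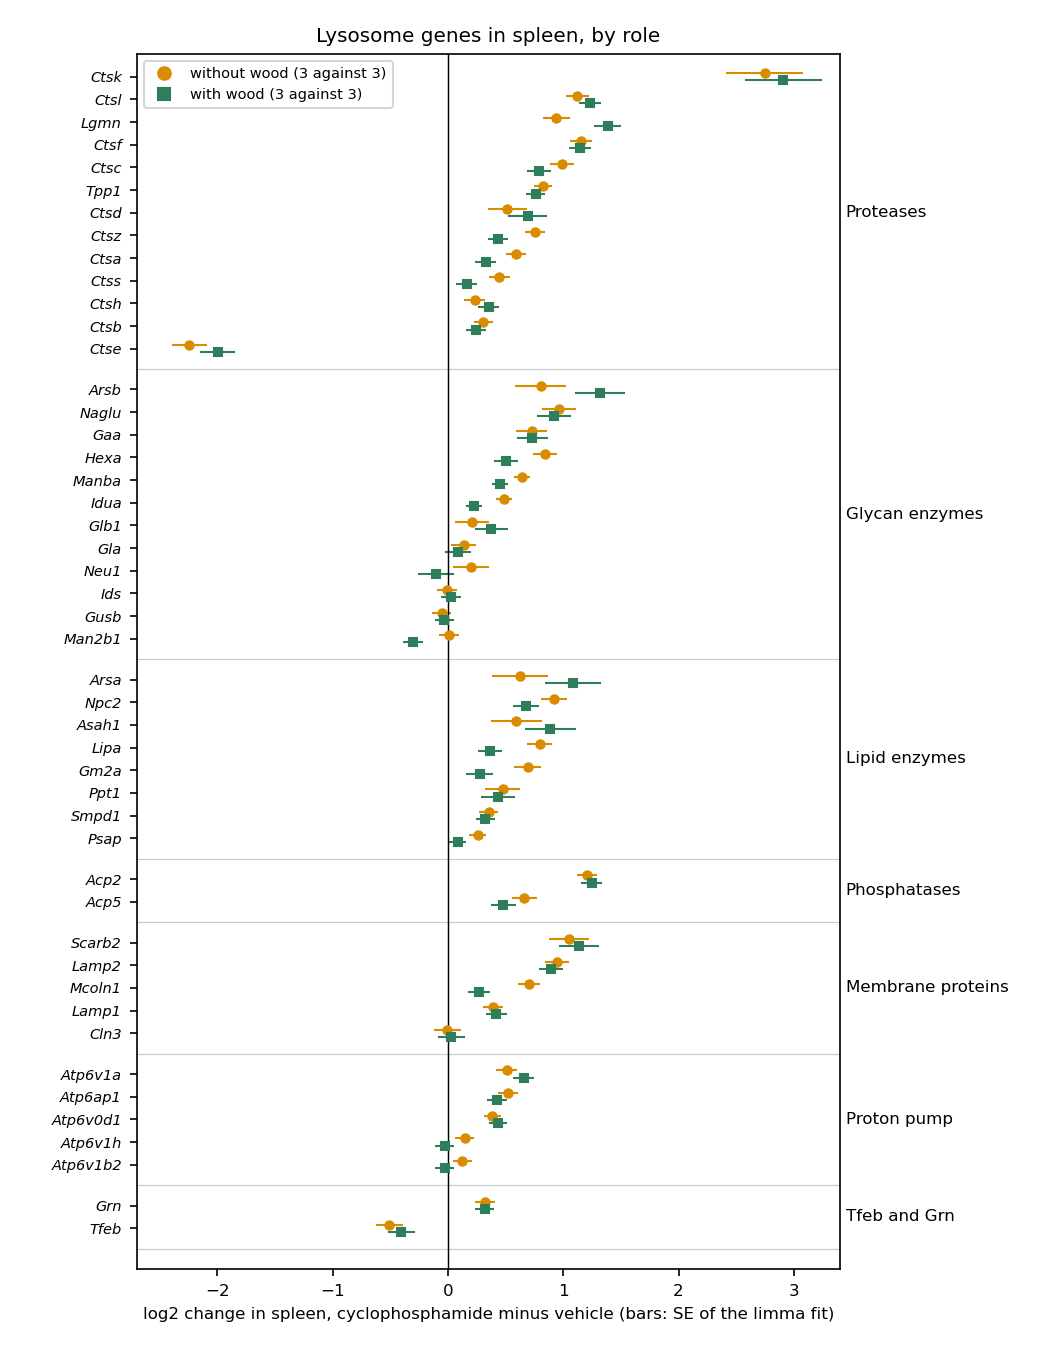
Log2 change in spleen, cyclophosphamide minus vehicle, of the 47 measured lysosome genes grouped by role, without wood (circles) and with wood (squares), 3 rats against 3 each. Bars are the SE of the limma fit. Ctsk lies farthest to the right, Ctse farthest to the left, and 41 genes have the same sign in both housings.

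Of the 13 proteases 12 rose and Ctse fell. Cathepsin K (Ctsk), a collagen-degrading cysteine protease best known from osteoclasts, had values of 9.10, 9.32 and 8.66 in drug-treated rats without wood, against 6.63, 6.45 and 5.76 in vehicle rats without wood. With wood it had 9.17, 9.13 and 8.79 in drug-treated rats, against 6.45, 5.37 and 6.55 in vehicle rats. The groups did not overlap, and the vehicle values were the more spread out. Its log2 change was 2.83 ± 0.24 (SE, adjusted p = 7.23e-06), or 7.09-fold.

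Cathepsin L (Ctsl), a broad-acting cysteine protease, had 11.83, 11.71 and 11.54 in drug-treated rats without wood, against 10.58, 10.56 and 10.58 in vehicle rats. In the housing with wood the values were 11.72, 11.74 and 11.77 in drug-treated rats, against 10.64, 10.53 and 10.36 in vehicle rats. Every treated spleen exceeded every vehicle spleen, and the log2 change was 1.18 ± 0.07 (SE, adjusted p = 9.6e-07). A second probe set of Ctsl gave 1.01.

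Cathepsin F (Ctsf), another cysteine protease, had 10.46, 10.21 and 10.32 in drug-treated rats without wood, against 9.13, 9.26 and 9.14 in vehicle rats. With wood the values were 10.60, 10.35 and 10.48 in drug-treated rats, against 9.37, 9.27 and 9.36 in vehicle rats. Its groups were likewise separate, with a log2 change of 1.15 ± 0.07 (SE, adjusted p = 9.88e-07).

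Legumain (Lgmn), the asparaginyl endopeptidase that processes cathepsins, had 12.52, 12.64 and 12.64 in drug-treated rats without wood, against 11.89, 11.59 and 11.51 in vehicle rats. In rats with wood it had 12.39, 12.47 and 12.34 in drug-treated rats, against 11.17, 10.86 and 11.02 in vehicle rats. The groups did not overlap, and the log2 change was 1.16 ± 0.08 (SE, adjusted p = 2.85e-06). A second, dimmer probe set of Lgmn gave 0.23 and did not pass (adjusted p = 0.118), and with the mean of both sets the gene's log2 change was 0.70.

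The other proteases rose by less. Ctsc, which activates granule serine proteases, rose by 0.89, and the tripeptidyl peptidase Tpp1 rose by 0.79. Ctsd, Ctsz and Ctsa rose by 0.60, 0.60 and 0.46, and Ctss, Ctsh and Ctsb by 0.30, 0.29 and 0.27. Ctss did not pass with wood (0.16, adjusted p = 0.189) and passed without wood (0.45), but the difference between the housings did not pass. Ctsh did not pass without wood (0.23, adjusted p = 0.0651).

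Cathepsin E (Ctse), an aspartic protease of endosomes known from stomach, red cell membranes and immune cells, went the other way. It had 9.09, 8.95 and 8.81 in drug-treated rats without wood, against 10.90, 11.41 and 11.27 in vehicle rats. Its values with wood were 8.95, 9.11 and 9.35 in drug-treated rats, against 10.98, 11.21 and 11.20 in vehicle rats. It was the single member whose drug-treated values all lay below the vehicle values, and its log2 change was −2.12 ± 0.11 (SE, adjusted p = 5.91e-07), a level 4.34-fold lower.

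**Figure D2:**
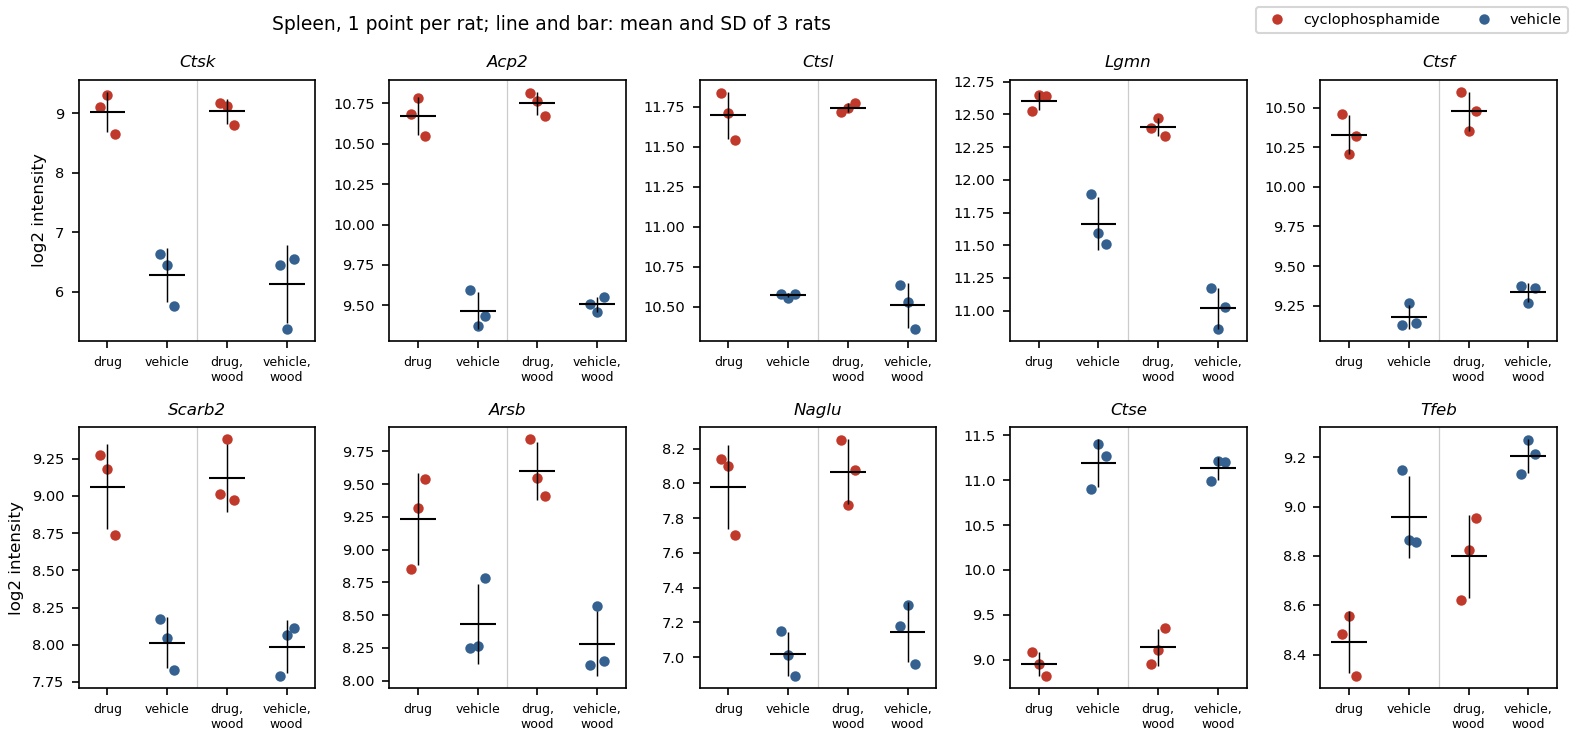
Log2 intensity in spleen of the 8 lysosome genes with the largest rises and the 2 that fell, 1 point per rat, for cyclophosphamide and vehicle without wood and then with wood. Lines and bars are the mean and SD of 3 rats. Drug and vehicle points do not overlap for 9 of the genes, and Tfeb is the exception.

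Among glycan-degrading enzymes 7 of 12 rose and none fell. Arylsulfatase B (Arsb), which removes sulphate from dermatan and chondroitin sulphate, had 8.85, 9.32 and 9.54 in drug-treated rats without wood, against 8.25, 8.26 and 8.78 in vehicle rats. Among rats with wood it had 9.84, 9.55 and 9.41 in drug-treated rats, against 8.12, 8.57 and 8.15 in vehicle rats. The groups were separate by a small margin without wood. Its log2 change was 1.06 ± 0.15 (SE, adjusted p = 0.000262), and a second probe set gave 0.43 without passing (adjusted p = 0.103).

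Naglu, a heparan sulphate glucosaminidase, had 8.14, 8.10 and 7.70 in drug-treated rats without wood, against 7.15, 7.01 and 6.89 in vehicle rats. The rats with wood had 8.25, 7.87 and 8.08 in drug-treated rats, against 7.18, 7.30 and 6.96 in vehicle rats. All treated values were above all vehicle values, with a log2 change of 0.94 ± 0.11 (SE, adjusted p = 4.66e-05).

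The other glycan enzymes that rose were the acid alpha-glucosidase Gaa (0.73), the hexosaminidase subunit Hexa (0.67), the beta-mannosidase Manba (0.54), the iduronidase Idua (0.36) and the beta-galactosidase Glb1 (0.29). The Glb1 call was weak: it passed in 4 of 12 refits that each left out 1 rat and was lost without 1003, 1005, 2001, 2003, 3003, 3005, 4001 or 4003, with adjusted p up to 0.0813. The alpha-galactosidase Gla, the sialidase Neu1, the iduronate sulfatase Ids, the beta-glucuronidase Gusb and the alpha-mannosidase Man2b1 did not pass, with log2 changes of 0.11, 0.05, 0.01, −0.04 and −0.15. Man2b1 was the third fall called with wood, where its log2 change was −0.30 (adjusted p = 0.0196), against 0.01 without wood. That call was lost without rat 3003, 3005 or 4005. A second probe set of Man2b1 gave −0.39 over both housings and passed (adjusted p = 0.0407).

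All 8 measured lipid enzymes and lipid-binding proteins rose. The sulfatide sulfatase Arsa rose by 0.85 and Npc2, which carries cholesterol inside the lysosome, by 0.80. The ceramidase Asah1, the acid lipase Lipa and the ganglioside activator Gm2a rose by 0.74, 0.58 and 0.48. The thioesterase Ppt1 and the sphingomyelinase Smpd1 rose by 0.45 and 0.34. Prosaposin (Psap), precursor of the saposins that present lipids to their enzymes, had the smallest rise called, 0.17. Taken by housing, Arsa and Asah1 did not pass without wood (adjusted p 0.0622 and 0.0507), nor Psap and Gm2a with wood (adjusted p 0.393 and 0.0968). The drug-treated and vehicle values of Arsa, Asah1, Gm2a, Ppt1 and Psap overlapped. A second probe set gave 1.75 for Asah1, 1.15 for Arsa and, among the glycan enzymes, 1.30 for Gaa, each larger than the set used.

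Both acid phosphatases rose. Acp2, the membrane-bound lysosomal acid phosphatase, had 10.68, 10.79 and 10.55 in drug-treated rats without wood, against 9.60, 9.37 and 9.43 in vehicle rats. With wood it had 10.81, 10.77 and 10.67 in drug-treated rats, against 9.51, 9.46 and 9.55 in vehicle rats. The 2 ranges were separated by nearly a whole log2 unit. Its log2 change was 1.23 ± 0.06 (SE, adjusted p = 6.88e-07), or 2.34-fold. Acp5, the tartrate-resistant phosphatase of osteoclasts and macrophages, rose by 0.57 (adjusted p = 0.00012).

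Of the 5 membrane proteins 4 rose. Scarb2, the receptor that carries beta-glucocerebrosidase to the lysosome, had 9.27, 9.18 and 8.73 in drug-treated rats without wood, against 8.17, 8.04 and 7.83 in vehicle rats. In the housing with wood the values were 9.01, 9.38 and 8.97 in drug-treated rats, against 7.79, 8.07 and 8.11 in vehicle rats. The groups did not overlap, and the log2 change was 1.09 ± 0.12 (SE, adjusted p = 4.57e-05). Lamp2 rose by 0.92, the calcium channel Mcoln1 by 0.49 and Lamp1 by 0.41. The 2 other probe sets of Lamp1, both dimmer, gave 0.94 and 0.89, and that of Lamp2 gave 0.76. Cln3, which has both the core and the longer element in its promoter, had a change of 0.01 (95% interval −0.17 to 0.20).

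Of the 5 measured subunits of the proton pump, Atp6v1a, Atp6ap1 and Atp6v0d1 rose, by 0.58, 0.47 and 0.41. A second probe set of Atp6v1a gave 1.01. Atp6v1h and Atp6v1b2 did not pass, at 0.06 and 0.05. Atp6v1h had a 95% interval of −0.07 to 0.19 and Atp6v1b2 one of −0.08 to 0.18.

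The 2 regulators moved in opposite directions. Progranulin (Grn), a precursor of granulins that act inside lysosomes, rose by 0.32 (adjusted p = 0.00124). Tfeb had 8.48, 8.56 and 8.31 in drug-treated rats without wood, against 9.15, 8.87 and 8.86 in vehicle rats. With wood the values were 8.62, 8.82 and 8.95 in drug-treated rats, against 9.13, 9.27 and 9.21 in vehicle rats. Drug-treated values were lower within each housing, but 1 treated rat with wood stood above 2 vehicle rats without it. Its log2 change was −0.46 ± 0.08 (SE, adjusted p = 0.00109). The call with wood alone was lost without rat 3003, 3005 or 4001, and without 3003 or 3005 Ctse was the single fall called with wood.

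Counted array by array, 28 of the 47 members had all 6 drug-treated spleens above all 6 vehicle spleens, where 16.1% of the genes with a value on every array did. Ctse alone had all 6 below, where 15.1% did.

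Further lysosome genes outside the list moved mostly the same way in spleen. Of 62 such genes 52 were measured, with a median log2 change of 0.36 in spleen. There 35 rose and 3 fell, where 26.9% and 28.1% of all genes did. The largest rises were Tfec (1.36), a transcription factor of the Tfeb family, the GTPase Rragd (1.35) and the galactosylceramidase Galc (1.16). Mitf, of the same family, rose by 1.07 (adjusted p = 0.00117), with 0.46 without wood and 1.68 with wood. No test of Mitf between the housings is given here. Tfe3, also of that family, did not pass (−0.15, adjusted p = 0.836). The falls were Epdr1 (−1.63), Tmem192 (−0.27) and Lamtor2 (−0.17). By role, 9 of 11 other hydrolases, 11 of 17 membrane and transport proteins, 7 of 11 pump subunits and 8 of 13 regulators rose.

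Cell type markers also changed in spleen. Of 12 measured macrophage markers 10 rose and Lyz2 fell. Their median log2 change was 0.84, and Spic rose by 1.39 and Mrc1 by 1.20. The summed intensity of the macrophage list was 49937 to 57099 in drug-treated rats and 30240 to 37903 in vehicle rats. Cd68, on that list, is itself a lysosomal membrane protein. Stroma and endothelium markers also rose, 8 of 9 and 7 of 7, with sums of 11683 to 13968 in drug-treated and 4642 to 6102 in vehicle rats for stroma. For endothelium the sums were 10002 to 12271 in drug-treated rats and 5144 to 6932 in vehicle rats.

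B cell and erythroid markers fell, granulocyte markers mostly fell, and T cell markers moved both ways. All 8 B cell markers fell, with a summed intensity of 2310 to 3387 in drug-treated rats and 17685 to 22398 in vehicle rats. All 8 tested erythroid markers fell, with sums of 285 to 594 in drug-treated rats and 10153 to 22750 in vehicle rats. Of 6 granulocyte markers 5 fell and Cxcr2 rose, with sums of 398 to 2217 in drug-treated rats and 3012 to 14482 in vehicle rats. Of 10 T cell markers 4 fell and 2 rose, where 28.1% and 26.9% of all genes did. The T cell sums overlapped, at 6885 to 10732 in drug-treated rats and 9239 to 11341 in vehicle rats. No marker of these lists was blank on every spleen array. The part of these markers in the rise of the lysosome genes, or in the fall of Ctse, was not tested.

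The drug-treated spleen of rat 2003 carried most of the signal of exocrine pancreas markers, whose sum reached 16948 in drug-treated rats and at most 1068 in vehicle rats. Without rat 2003, 36 members rose in spleen, and the call lost was that of Glb1.

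**Figure D3:**
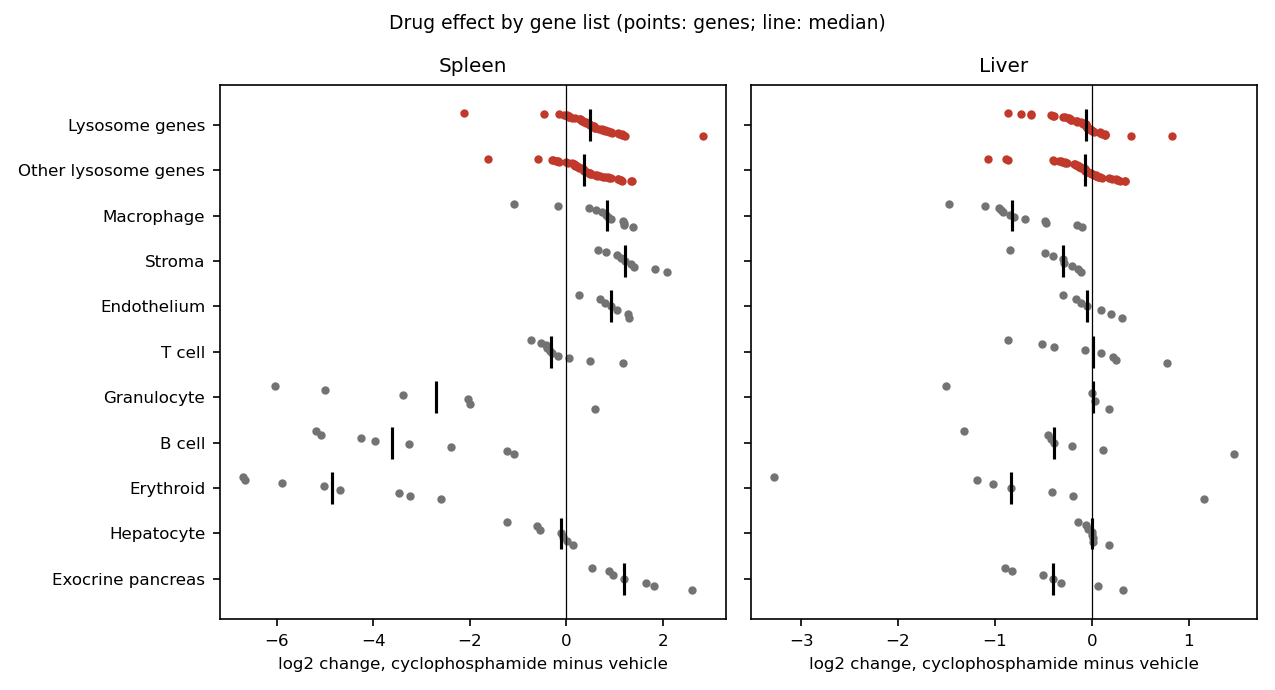
Log2 change of each gene, cyclophosphamide minus vehicle, by gene list in spleen and liver, with points for genes and a line for the median. Scales of the 2 panels differ. In spleen the lysosome lists (medians 0.48 and 0.36) lie above 0 with the macrophage, stroma and endothelium lists, while in liver the macrophage list has a median of −0.82.

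In liver, few lysosome genes changed, and those that came nearest to it were lower. Of the 47 members none rose and Ctss fell (limma, adjusted p below 0.05 over 12683 genes), where 0.166% of all genes rose and 0.647% fell. At an unadjusted p below 0.05 there were 12 members, where 14.3% of all genes were. The log2 change was below 0 in 36 of the 47. The share of all genes below 0 was not counted, but their median was slightly below 0. The median was −0.06 over the members and −0.02 over all genes. In the separate comparisons without wood and with wood no member was called, where 0.15% and 0.0473% of all genes were. At an unadjusted p below 0.05 there were 8 members without wood, where 11.9% of all genes were, and 7 with wood, where 8.12% were.

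Ctss, a cathepsin of antigen-presenting cells that cleaves the invariant chain, had 9.94, 9.72 and 9.69 in drug-treated livers without wood, against 10.45, 10.64 and 10.14 in vehicle livers. In rats with wood it had 9.80, 9.73 and 9.28 in drug-treated livers, against 10.26, 10.64 and 10.42 in vehicle livers. All treated values lay below all vehicle values. The log2 change was −0.73 ± 0.13 (SE, adjusted p = 0.038), but it passed in only 2 of 12 refits that left out 1 rat, those without 1005 and without 4001, and adjusted p reached 0.096. Its log2 change over these refits was −0.80 to −0.65.

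Acp5 had 6.75, 6.24 and 6.72 in drug-treated livers without wood, against 7.15, 7.62 and 7.50 in vehicle livers. Its values with wood were 7.19, 7.05 and 6.90 in drug-treated livers, against 7.37, 7.54 and 7.42 in vehicle livers. The groups overlapped by 1 vehicle rat without wood, and the log2 change of −0.63 ± 0.12 (SE) did not pass (adjusted p = 0.0508).

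Psap had 11.52, 11.13 and 11.41 in drug-treated livers without wood, against 11.75, 11.77 and 11.79 in vehicle livers. Among rats with wood it had 11.41, 11.51 and 11.45 in drug-treated livers, against 11.89, 11.78 and 11.83 in vehicle livers. These ranges did not overlap, and the log2 change was −0.40 ± 0.08 (SE, adjusted p = 0.0527).

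Grn had 9.89, 10.04 and 10.04 in drug-treated livers without wood, against 10.32, 10.43 and 10.25 in vehicle livers. The rats with wood had 9.88, 10.24 and 9.83 in drug-treated livers, against 10.43, 10.45 and 10.43 in vehicle livers. Again all treated values were lower, by a small margin, with a log2 change of −0.40 ± 0.09 (SE, adjusted p = 0.0695). Ctss, Psap and Grn were the 3 of 46 members, with a value on every array, whose treated livers all lay below the vehicle livers, where 1.82% of genes did. None lay wholly above, where 1.06% did.

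**Figure D4:**
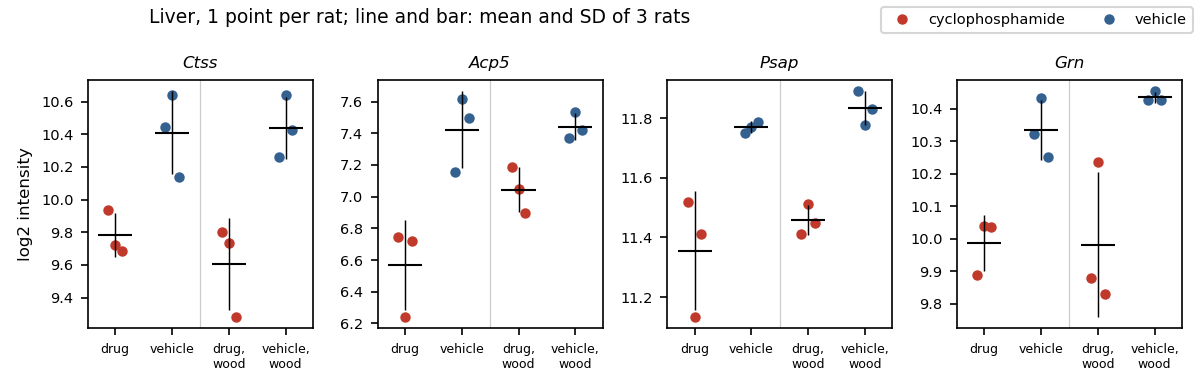
Log2 intensity in liver of the 4 lysosome genes with the smallest p for the drug, 1 point per rat, for cyclophosphamide and vehicle without wood and then with wood. Lines and bars are the mean and SD of 3 rats. Drug-treated points lie below all vehicle points for Ctss, Psap and Grn, and Acp5 overlaps by 1 rat.

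Macrophage markers were lower in liver. Of 12 measured, 5 fell and none rose, with a median log2 change of −0.82. Those that fell were C1qa, Adgre1, Csf1r, the Kupffer cell lectin Clec4f and C1qc. The summed macrophage intensity was 5004 to 7467 in drug-treated livers and 9124 to 11332 in vehicle livers. The erythroid sum was 286 to 459 in drug-treated livers and 591 to 944 in vehicle livers, with Alas2 lower and Epb42 blank on every liver array. No macrophage marker was blank on every liver array. Hepatocyte markers had sums of 77614 to 88353 in drug-treated livers and 80134 to 88354 in vehicle livers, and none was called. The part of the macrophage and erythroid markers in the lower lysosome values was not tested.

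Without the liver array of rat 2003, Ctss did not pass (adjusted p = 0.065), while Psap and Glb1 did, so 2 members fell. Ctsk was measured on 6 of the 12 liver arrays, and its liver change rests on those 6 values. None of the 52 other lysosome genes was called in liver, and their median log2 change was −0.07.

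The drug effect itself differed between the organs for most members. In the test of the drug effect in spleen minus that in liver, 36 of 47 members were higher and 2 lower (limma over 24 arrays, adjusted p below 0.05 over 12474 genes), where 18.4% and 14.7% of all genes were. The median difference was 0.57 over the members and −0.01 over all genes. Of the 37 spleen rises, 35 were called higher in this test. In liver 28 of the 37 stood below 0, where the median over all genes was also slightly below 0. The difference was 1.39 for Lgmn, 1.23 for Acp2, 1.20 for Acp5, 1.04 for Ctss, 0.72 for Grn and 0.57 for Psap. The lower ones were Ctse (−1.49) and Tfeb (−0.41).

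Spleen and liver of a rat are paired. With rats as a replicate block, 35 members were called, and the share of all genes called in that fit is not given here. Ctsk (2.08, adjusted p = 0.0784), Gm2a (0.35, adjusted p = 0.0725) and Idua (0.27, adjusted p = 0.0877) no longer passed. Ctsk was also lost without rat 1003 or 2003, Atp6v1b2 without 1005, 3001 or 3005, and Gm2a without 1005, 2003, 3005 or 4001. Idua passed in 4 of 12 refits without 1 rat. When the probe sets of each gene were averaged, Arsb (0.50, adjusted p = 0.18), Lamp1 (0.65, adjusted p = 0.241) and Idua (0.27, adjusted p = 0.0528) were lost. Mcoln1 (0.49, adjusted p = 0.0504) was just outside the threshold in the unblocked fit.

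**Figure D5:**
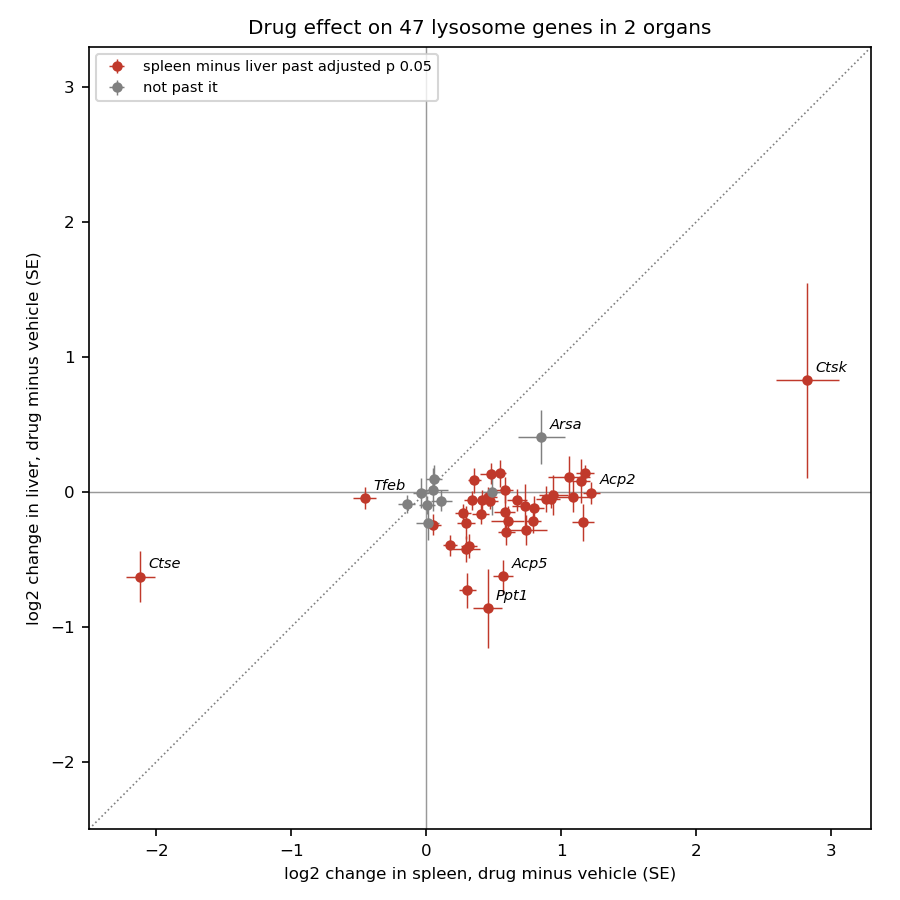
Log2 change after cyclophosphamide in spleen (horizontal) and in liver (vertical) of the 47 lysosome genes, with SE bars and a dotted line of equal change. Red marks the 38 genes whose drug effects differ between organs. Most points lie right of 0 in spleen and close to 0 or below it in liver.

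In vehicle rats the lysosome genes differed between the organs about as often as other genes did. Of 47 members, 29 were higher and 9 lower in spleen than in liver, where 59.2% and 20.2% of all genes were. The median spleen minus liver difference was 0.44 over the members and 0.72 over all genes. Quantile normalisation moved these medians to 0.33 and 0.34, and centring the arrays moved them to 0.08 and 0.36.

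The largest differences toward spleen were Ctse (4.98), Acp5 (4.22), Ppt1 (3.00) and Ctsz (2.56). Those toward liver were Ctsl (−2.40), Lamp2 (−1.84) and Smpd1 (−1.22). Tfeb and Grn were higher in spleen, by 0.95 and 1.77. Ctsb, Ctsf, Gla and Cln3 were called higher in spleen, and their sign turned under other scaling or probe set choices.

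Few of these genes were called for wood sticks. In liver no member was called for wood minus no wood, where 0% of all genes were. At an unadjusted p below 0.05 there was 1 member, where 6.16% of all genes were. The smallest p values in liver were those of Atp6v1b2 (0.30, adjusted p = 0.445), Acp5 (0.25, adjusted p = 0.826) and Acp2 (−0.17, adjusted p = 0.826). In spleen 4 members were called, where 12.1% of all genes were. Lgmn (−0.42, adjusted p = 0.0177), Ctsb (−0.24, adjusted p = 0.0341) and Ctsd (−0.44, adjusted p = 0.0449) were lower with wood, and Tfeb (0.30, adjusted p = 0.0457) was higher.

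Cathepsin D (Ctsd), the main lysosomal aspartic protease, had 11.01, 11.13 and 11.26 in drug-treated spleens with wood, against 11.27, 11.65 and 11.53 in those without. In vehicle spleens it had 10.67, 10.14 and 10.53 with wood, against 11.24, 10.88 and 10.78 without. The groups were separate within each treatment. Cathepsin B (Ctsb) had 12.60, 12.62 and 12.52 in drug-treated spleens with wood, against 12.94, 12.86 and 12.75 without, and 12.30, 12.24 and 12.46 in vehicle spleens with wood, against 12.55, 12.59 and 12.49 without.

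The arrays with many blanks are all without wood, so the blank division moves with this comparison. In the fit with that division as batch none of the 4 passed (adjusted p 0.245 to 0.81). The changes in that fit were −0.39 for Lgmn, −0.34 for Ctsb, −0.39 for Ctsd and 0.16 for Tfeb, so that of Tfeb was the one that moved by over 1.5 times. Among drug-treated spleens with few blanks, 3 with wood against 2 without, none of the 4 passed either (adjusted p 0.645 to 0.775). There the changes were −0.18 for Lgmn, −0.32 for Ctsb, −0.33 for Ctsd and 0.28 for Tfeb. Lgmn passed in all 12 refits that left out 1 rat, and Ctsb, Ctsd and Tfeb passed in 2, 2 and 3 of them. When the 2 probe sets of Lgmn were averaged, its change was −0.21 and did not pass (adjusted p = 0.116).

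The drug effect with wood minus that without wood was called for no member in either organ, where 0% of all genes were called in liver and 0.705% in spleen. At an unadjusted p below 0.05 there were 8 members in spleen, where 13% of all genes were, and 0 in liver, where 5.12% were. The smallest p values in spleen were those of Mcoln1, Lipa and Lgmn. Mcoln1 had 8.20, 8.23 and 8.29 in drug-treated spleens with wood, against 7.96, 7.89 and 8.07 in vehicle spleens, and 8.35, 8.31 and 8.20 in drug-treated spleens without wood, against 7.75, 7.55 and 7.44. Its rise was the smaller with wood, by a difference of −0.44 ± 0.13 (SE, adjusted p = 0.21). Lipa differed by −0.43 (adjusted p = 0.269) and Lgmn by 0.45 (adjusted p = 0.296). In liver the smallest were Ctsz (−0.37), Acp5 (0.46) and Atp6ap1 (−0.23), each with an adjusted p of 0.95.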

How the data were processed

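Frozen organs gave RNA, of which 5 µg went to a rat Affymetrix array, per the labels. The deposited values were taken as log10 intensities, a base inferred from their span, which is 2140-fold on that reading (extreme 1% at each end left out) and 10.1-fold if they were log2, as the design had assumed. The probe summary and scaling used by the authors are not given here. The values were turned into log2, unscaled, with blanks (10.5% of cells) left missing. Each gene was read from the probe set whose log2(intensity + 16) had the highest mean, and was tested where every group had a value. limma 3.58.1 in R 4.3.3 was fitted to 4 group means per organ and to 8 over both organs, with Benjamini-Hochberg adjustment over all genes at 0.05, and was tested on simulated data. Organs of an animal share its number per the labels. Their deviations correlated from −0.058 to 0.170 over 10530 genes, best with their own animal in 11 of 12. The number of arrays limits the precision.

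The members and lists were chosen with earlier results of these data known. Array values are given for up to 8 rises and 8 falls per organ past the threshold with the same sign in both housings, or the 4 smallest p where fewer passed, and for some of the smallest p for wood and drug by wood. Further members, markers and the 5 promoters shown were chosen after their values were seen. Alternatives were other scalings, offsets, filters and probe set rules, trend and robust eBayes, the compared groups alone, a batch term for spleen arrays with over 1500 blanks, leaving out each rat, and a replicate block. Wood under the drug among spleen arrays with few blanks was added after seeing the data.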

Additional observations from a re-analysis of the deposited data

Results flagged for a closer look

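The drug effect in spleen differed from that in liver, by the test of the difference itself in limma, for 38 of the 47 members, 36 of them higher in spleen. Values are log2 changes after the drug in spleen minus those in liver, over 6 drug-treated and 6 vehicle rats. Among proteases the difference was 2.00 for Ctsk, 1.39 for Lgmn, 1.07 for Ctsf, 1.04 for Ctsl and 1.04 for Ctss. It was 1.01 for Tpp1, 0.94 for Ctsc, 0.89 for Ctsz, 0.82 for Ctsd and 0.52 for Ctsh. It was 0.49 for Ctsa, 0.43 for Ctsb and −1.49 for Ctse. Among glycan enzymes the difference was 0.96 for Naglu, 0.95 for Arsb, 0.84 for Gaa, 0.73 for Hexa and 0.72 for Glb1. It was 0.41 for Manba and 0.27 for Idua. Among lipid enzymes and lipid-binding proteins the difference was 1.32 for Ppt1, 1.02 for Asah1, 0.91 for Npc2, 0.73 for Lipa and 0.57 for Psap. It was 0.40 for Smpd1 and 0.35 for Gm2a. Of the phosphatases the difference was 1.23 for Acp2 and 1.20 for Acp5. Among membrane proteins the difference was 1.13 for Scarb2, 0.97 for Lamp2 and 0.57 for Lamp1. Among proton pump subunits the difference was 0.57 for Atp6v1a, 0.54 for Atp6ap1, 0.47 for Atp6v0d1 and 0.29 for Atp6v1b2. Of the regulators the difference was 0.72 for Grn and −0.41 for Tfeb. For Ctsk, Gm2a and Idua the difference no longer passed with rats as a replicate block, and for Ctsk 6 of the 12 liver arrays were blank. Groups of 3 rats were too small for a test of single outlying values.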

How the results depend on the processing

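The 39 members called for the drug effect in spleen kept their sign under each alternative run, and 37 stayed past the threshold wherever they were tested (Ctsk and Naglu were not tested among genes at or above the median level); Glb1 and Psap did not. Leaving out 1 rat gave 36 to 37 rises and 2 to 3 falls. Counts over all genes are given below for some of the liver fits only. The liver count was the least stable, and the calls over all genes moved too. In the main fit 1 member fell, where 21 of all 12683 genes rose and 82 fell. With an offset of 16, 4 members fell (177 of 14201 genes called in either direction), and with an offset of 64 also 4 (212 of 14201). With at least 2 values per group 3 fell (127 of 12077), and among genes at or above the median level 5 (199 of 7101). Trend and robust eBayes gave 5 (206 of 12683), and leaving out 1 rat gave 0 to 2. Without wood, liver gave 1 fall among genes at or above the median level, against 0. With wood, spleen falls numbered 1 to 3 without 1 rat, against 3. Over all alternatives the spleen wood calls numbered 0 to 6. The 4 calls of the main fit became 0 with the batch term, 0 under the drug among arrays with few blanks, and 1 to 3 without 1 rat. Their changes with the batch term stayed within 1.5 times of the values without it for Lgmn, Ctsb and Ctsd, and not for Tfeb (0.16). The cause was not tested, except that fewer rats or genes enter some fits.

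Spleen minus liver in vehicle rats depended on scaling. Centring gave −0.13 for Ctsb, −0.042 for Ctsf and −0.14 for Gla. Quantile normalisation gave −0.079 for Ctsf, −0.30 for Gla (adjusted p = 0.00088) and −0.077 for Cln3, and the mean of all probe sets gave −0.079 for Gla. With paired organs as a replicate block, 35 members were called for drug by organ, against 38, and 37 for spleen minus liver, against 38, where Ctsf was lost; it changed no other call beyond those given. With 3 rats per group and a larger spread within groups in liver than in spleen, small liver changes may have been missed.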
